A study of Mus musculus with 16 samples.

Results

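Lymphatic endothelial markers were followed in cultured heart slices through 5 genes, Prox1, Lyve1, Flt4, Pdpn and Reln. They were chosen by symbol as known markers, with Mmrn1 left out for its lack of counts in Swhtr null libraries, and are 5 of the 55487 genes in the count table of the 16 libraries. All 5 passed the filter of at least 10 counts in total. The slices came from male mice aged 8 weeks, and each of the 4 groups held 4 libraries. Swhtr null treated and Swhtr null untreated slices carried a transcriptional stop signal on both alleles of the lncRNA gene Swhtr (Swhtr3xpA/3xpA), and WT treated and WT untreated slices carried none. Treated slices were held for 7 days at 3% O2 and then for 7 days at 21% O2, whereas untreated slices stayed at 21% O2 for 14 days. The slices were prepared after apex and base had been removed, from 4 mice per genotype and 2 litters. Per the paper, the Swhtr null strain was backcrossed and then kept by breeding homozygous parents. Effects of the genotype and differences between the mouse lines therefore cannot be told apart. Which library came from which mouse is not stated, so libraries of a genotype that share a mouse entered the tests as independent, and the p-values measure the spread between these libraries. Comparisons asked whether the markers differed after hypoxia and recovery, between the genotypes, and in their response between the genotypes.

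Lymphatic vessels of the heart drain tissue fluid and carry immune cells away from the myocardium. Their endothelium arises when venous endothelial cells switch on the homeodomain factor Prox1, which keeps lymphatic identity throughout life and maintains the receptor tyrosine kinase Flt4 (VEGFR-3). Flt4 binds the growth factors Vegfc and Vegfd and drives sprouting and growth of lymphatic vessels. Lyve1 is a hyaluronan receptor of lymphatic capillaries that resident macrophages of the heart also carry. Pdpn (podoplanin) is a membrane mucin of lymphatic endothelium, and stromal and mesothelial cells make it as well. Reln (reelin) is a large secreted glycoprotein that lymphatic endothelium releases and that attracts smooth muscle cells to collecting vessels. In bulk slices fewer cells of a type and less RNA per cell cannot be told apart.

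Prox1 (ENSMUSG00000010175) lies on the minus strand of chr1:190118035-190170714 in GRCm38, and its merged exons span 8390 bases. Lyve1 (ENSMUSG00000030787) lies on the minus strand of chr7:110850607-110863239 with 2919 exon bases. Flt4 (ENSMUSG00000020357) lies on the plus strand of chr11:49609263-49652739 with 8232 exon bases. Pdpn (ENSMUSG00000028583) lies on the minus strand of chr4:143267431-143299564 with 1817 exon bases, and Reln (ENSMUSG00000042453) on the minus strand of chr5:21884454-22344702 with 23738 exon bases. Exons of Prox1 share 133 bases with the antisense gene Prox1os, and exons of Reln share 246 bases with the antisense gene Gm10475. Whether reads were counted by strand is not given, so reads over these bases cannot be told apart. Prox1os had 3 counts in Swhtr null treated library 3 and 0 in every other library, and Gm10475 had 0 counts in all 16 libraries.

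Because the treatment changed the oxygen supply, the 250 bases before the start of each gene were searched for ACGTG and GCGTG on either strand, the core letters bound by hypoxia-inducible factors. RefSeq promoter windows of GRCm38.p6 were at hand for 4 of the 5 genes, with 2 starts for Prox1, and none of them was matched for Lyve1. The windows of Prox1, Reln and Pdpn are shown because Prox1 and Reln varied together across the libraries whereas Pdpn varied with neither. Capitals mark the matched letters, with CACGTG counted on both strands.
Reln (chr5:22344706-22344955, minus strand): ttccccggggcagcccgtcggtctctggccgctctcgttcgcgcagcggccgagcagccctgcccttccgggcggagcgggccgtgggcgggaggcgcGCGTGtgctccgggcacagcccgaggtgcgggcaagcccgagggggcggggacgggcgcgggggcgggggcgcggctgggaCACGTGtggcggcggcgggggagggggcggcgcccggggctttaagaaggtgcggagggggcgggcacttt
Pdpn (chr4:143299565-143299814, minus strand): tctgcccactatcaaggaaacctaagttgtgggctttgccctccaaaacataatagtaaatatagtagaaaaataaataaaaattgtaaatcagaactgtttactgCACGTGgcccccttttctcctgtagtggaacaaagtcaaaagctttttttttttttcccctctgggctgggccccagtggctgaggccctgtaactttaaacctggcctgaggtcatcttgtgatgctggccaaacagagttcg
Prox1 (chr1:190170828-190171077, minus strand): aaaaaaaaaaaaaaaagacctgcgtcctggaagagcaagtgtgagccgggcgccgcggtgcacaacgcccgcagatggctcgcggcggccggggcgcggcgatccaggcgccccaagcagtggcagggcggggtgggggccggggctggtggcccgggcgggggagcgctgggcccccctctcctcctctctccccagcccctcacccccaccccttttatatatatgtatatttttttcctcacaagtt
The Reln window held GCGTG 152 bases before the start and CACGTG 71 bases before it. The Pdpn window held CACGTG 144 bases before the start. Neither Prox1 window and no part of the Flt4 window held these letters. Of 32851 windows of the same length, 12679 (38.6%) held at least 1 match, so 2 of 4 genes is a description and no site or cause.

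The libraries held 17830351 to 29941903 counts. Markers of cardiomyocytes were low in all of them: the 12 listed genes summed to 7.69 to 101 CPM, and the transcription factor gene Nkx2-5 averaged 0.0894 to 0.179 CPM in the 4 groups. The 12 listed fibroblast genes summed to 23543 to 33558 CPM, the 16 blood endothelial genes to 1770 to 2923 CPM, the 18 macrophage genes to 2416 to 5576 CPM, and the 14 epicardial genes to 150 to 312 CPM. The 5 lymphatic markers summed to 264 to 410 CPM, and each of them was detected in every library. CPM here are counts scaled to library size, with TMM factors. Per length, Pdpn averaged 123 CPM per kb of exon and stood at percentile 98.7 of the 24916 tested genes with a known length. Flt4 averaged 9.96 CPM per kb (percentile 81.5) and Lyve1 2.39 CPM per kb (percentile 58.9). Prox1 averaged 0.760 CPM per kb (percentile 45.6), and Reln was lowest with 0.120 CPM per kb (percentile 24.5). Total counts behind these levels were 79824 for Pdpn, 29657 for Flt4, 2478 for Lyve1, 2275 for Prox1 and 1034 for Reln, so the levels of Lyve1, Prox1 and Reln rest on far fewer reads. Mmrn1, another gene of lymphatic endothelium, was not among the markers because it had 0 counts in all 8 Swhtr null libraries, against 63 to 188 counts in the 8 WT libraries. A limit of 3 counts over the 8 libraries corresponds to 0.0164 CPM.

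None of the 5 markers was called changed in any of 7 comparisons with edgeR's quasi-likelihood test without a replicate block, where a call needs a Benjamini-Hochberg adjusted p under 0.05 over all 24971 genes tested and a log2 fold change beyond 0.58 either way. Between treated and untreated Swhtr null slices, 0 of 5 markers were called beside 0.621% of all genes, and 1 of 5 (Flt4) had an unadjusted p under 0.05 beside 16.5% of all genes. With the library number as a replicate block in the Swhtr null libraries alone, 1 of 5 (Reln) was called. That block was added after the data were seen, and the planned block over all 16 libraries called 0 of 5. Between treated and untreated WT slices, 0 of 5 were called beside 0.0% of all genes, and 1 of 5 (Lyve1) had an unadjusted p under 0.05 beside 4.81%. Swhtr null against WT gave 0 of 5 calls in untreated slices (0.1% of all genes) and 0 of 5 in treated slices (0.0921%), with 1 marker (Lyve1) and 0 markers under an unadjusted p of 0.05 beside 5.36% and 6.25% of all genes. For the difference between the responses, 0 of 5 were called beside 0.0%, with 1 of 5 (Lyve1) under an unadjusted p of 0.05 beside 6.89%. Averaged over treatments, the genotypes gave 0 of 5 calls beside 0.132%, and 0 of 5 under an unadjusted p of 0.05 beside 4.89%. Averaged over genotypes, treatment gave 0 of 5 calls beside 0.36%, and 1 of 5 (Flt4) under an unadjusted p of 0.05 beside 14.4%. These 7 comparisons share libraries. DESeq2 on all 16 libraries and limma also called 0 of 5 in each comparison, whereas DESeq2 on the 8 libraries compared called Lyve1 in 2 of the 4 comparisons between groups.

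**Figure D1:**
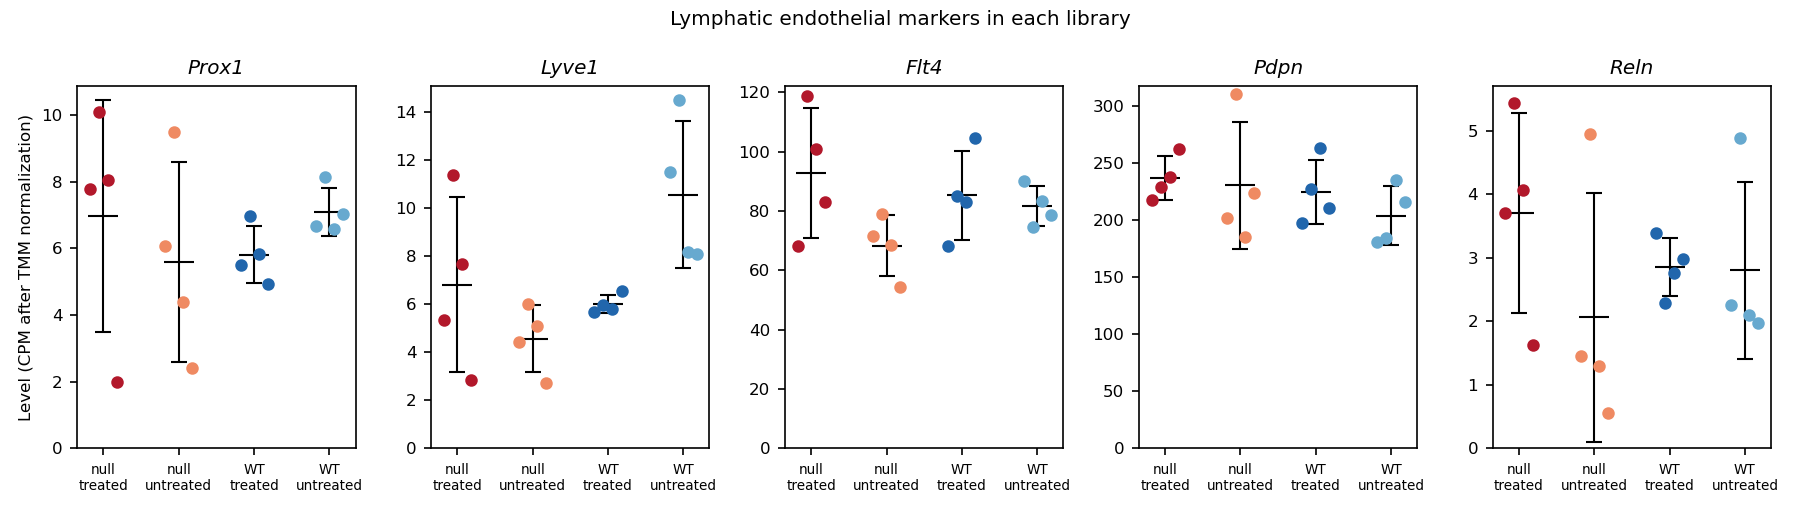
Level of each marker (vertical axis, CPM after TMM normalization, starting at 0) in the 4 libraries of each group (points), with the mean (long bar) and the standard deviation (error bars). Prox1 and Reln spread more among Swhtr null libraries than among WT treated libraries, and the Lyve1 points of WT untreated slices lie above those of WT treated and Swhtr null untreated slices.

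Prox1 had 7.78, 10.1, 8.04 and 1.99 CPM in Swhtr null treated libraries 1 to 4, against 6.07, 9.50, 4.39 and 2.41 CPM in Swhtr null untreated libraries 1 to 4. It had 5.51, 6.98, 5.84 and 4.93 CPM in WT treated libraries, against 6.66, 8.14, 6.59 and 7.03 CPM in WT untreated libraries. Within the Swhtr null genotype library 2 was highest and library 4 lowest under both conditions, and the treated and untreated ranges overlapped in each genotype. The means were 6.98 ± 3.48 CPM in Swhtr null treated, 5.59 ± 3.01 CPM in Swhtr null untreated, 5.82 ± 0.866 CPM in WT treated and 7.11 ± 0.718 CPM in WT untreated slices (SD, n = 4 each). On the log2 scale, treated Swhtr null slices differed from untreated ones by 0.32 (SE 0.42, 95% interval -0.58 to 1.23) with an adjusted p of 0.761, and treated WT slices from untreated ones by -0.29 (SE 0.42, -1.19 to 0.62) with an adjusted p of 0.999. Swhtr null differed from WT by -0.35 (-1.26 to 0.56) in untreated and by 0.26 (-0.63 to 1.16) in treated slices, with adjusted p of 0.968 and 0.917. The WT means lay further apart than either SD, but none of the 4 differences passed the test, and each of the 4 intervals includes a change of 2-fold in 1 direction.

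Flt4, the receptor, had 68.4, 118.9, 100.9 and 82.9 CPM in Swhtr null treated libraries 1 to 4, against 71.6, 78.8, 68.4 and 54.4 CPM in Swhtr null untreated libraries 1 to 4. WT treated libraries had 68.3, 85.1, 83.0 and 104.7 CPM, against 90.1, 74.6, 83.3 and 78.5 CPM in WT untreated libraries. Libraries 2, 3 and 4 of Swhtr null treated slices exceeded every untreated Swhtr null library, but library 1 did not, and the WT groups overlapped. The means were 92.8 ± 21.9 CPM in treated and 68.3 ± 10.3 CPM in untreated Swhtr null slices, and 85.3 ± 14.9 CPM in treated and 81.6 ± 6.68 CPM in untreated WT slices (SD, n = 4 each). Flt4 was 1.36-fold (1.06 to 1.74) as high in treated as in untreated Swhtr null slices, a log2 difference of 0.44 (SE 0.17) with an unadjusted p of 0.019 and an adjusted p of 0.203 by edgeR, which misses the threshold. In WT slices the log2 difference was 0.06 (-0.29 to 0.42, adjusted p 0.999), and the difference between the 2 responses was 0.38 (-0.13 to 0.89, adjusted p 0.743). Averaged over the genotypes, treated slices were 0.25 higher on the log2 scale (SE 0.12, unadjusted p 0.0499, adjusted p 0.347).

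Lyve1 had 5.36, 11.4, 7.67 and 2.82 CPM in Swhtr null treated libraries 1 to 4, against 4.42, 6.02, 5.09 and 2.72 CPM in Swhtr null untreated libraries 1 to 4. WT treated libraries had 5.69, 5.97, 5.80 and 6.53 CPM, against 11.5, 14.5, 8.17 and 8.09 CPM in WT untreated libraries. Every WT untreated library lay above every WT treated and every Swhtr null untreated library, so this capillary receptor did not overlap in these 2 comparisons. The means were 6.81 ± 3.64 CPM in Swhtr null treated, 4.56 ± 1.39 CPM in Swhtr null untreated, 6.0 ± 0.373 CPM in WT treated and 10.6 ± 3.06 CPM in WT untreated slices (SD, n = 4 each). Untreated Swhtr null slices had 0.432-fold (0.257 to 0.725) the Lyve1 level of untreated WT slices, a log2 difference of -1.21 (SE 0.35) with an unadjusted p of 0.00371 and an adjusted p of 0.903. Treated WT slices had 0.569-fold (0.344 to 0.942) the level of untreated WT slices, a log2 difference of -0.81 (SE 0.34) with an unadjusted p of 0.0311 and an adjusted p of 0.999. Both miss the edgeR threshold, whereas DESeq2 on the 8 libraries compared called both, with adjusted p of 0.00181 for the genotypes and 0.00901 for WT treatment. In the treated Swhtr null slices the log2 difference from untreated ones was 0.59 (-0.16 to 1.33, adjusted p 0.432), opposite in sign to that in WT slices. Without Swhtr null treated library 2 it was 0.22, and without treated library 4 it was 0.84. The responses of the genotypes differed by 1.40 (SE 0.49, 0.36 to 2.44) with an unadjusted p of 0.0121 and an adjusted p of 0.715, and treated Swhtr null and WT slices by 0.19 (-0.54 to 0.92, adjusted p 0.928).

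Of the 5 markers, Lyve1 alone separated groups without overlap: 0 of 5 between treated and untreated Swhtr null slices (7.32% of all genes in either direction), 1 of 5 between treated and untreated WT slices (3.67%), 1 of 5 between untreated Swhtr null and WT slices (2.87%) and 0 of 5 between treated ones (4.06%). Since macrophages also carry Lyve1, their list was set beside it. The 18 macrophage genes summed to 2416 to 4370 CPM in Swhtr null treated, 3112 to 5576 CPM in Swhtr null untreated, 3986 to 4539 CPM in WT treated and 4395 to 4884 CPM in WT untreated slices. Of its 17 genes tested, 0 were called in each of the 7 comparisons, 5 of 17 were higher in untreated Swhtr null than in untreated WT slices (median log2 difference -0.04) and 4 of 17 were higher in treated than in untreated WT slices (median -0.12). Of the 18 listed genes, 15 averaged above 1 CPM, among them Folr2 with 10.6 to 15.8 CPM in the 4 groups. Timd4, a marker of long-lived resident macrophages, was near 0 (0.0339 to 0.0914 CPM in the 4 groups), and Ccl24 was under the filter. The part of macrophages in the Lyve1 differences was not tested.

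Pdpn had 217, 229, 238 and 262 CPM in Swhtr null treated libraries 1 to 4, against 202, 310, 185 and 224 CPM in Swhtr null untreated libraries 1 to 4. WT treated libraries had 197, 227, 263 and 210 CPM, against 180, 184, 235 and 216 CPM in WT untreated libraries. The groups overlapped in every comparison, and the most distant library was Swhtr null untreated library 2. The means were 237 ± 19.2 CPM in Swhtr null treated, 230 ± 55.7 CPM in Swhtr null untreated, 224 ± 28.2 CPM in WT treated and 204 ± 26.0 CPM in WT untreated slices (SD, n = 4 each). This mucin was measured most precisely of the 5: its log2 difference was 0.04 (-0.27 to 0.34) between treated and untreated Swhtr null slices and 0.14 (-0.17 to 0.44) between treated and untreated WT slices. Between Swhtr null and WT it was 0.18 (-0.13 to 0.48) in untreated and 0.08 (-0.23 to 0.38) in treated slices. The adjusted p of these 4 differences were 0.936, 0.999, 0.941 and 0.930, and each interval excludes a change of 1.5-fold.

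Reln, the secreted member, had 3.71, 5.44, 4.07 and 1.63 CPM in Swhtr null treated libraries 1 to 4, against 1.46, 4.95, 1.30 and 0.564 CPM in Swhtr null untreated libraries 1 to 4. WT treated libraries had 3.39, 2.28, 2.76 and 2.99 CPM, against 2.26, 4.88, 2.10 and 1.97 CPM in WT untreated libraries. In each untreated group library 2 stood above the other 3, and the ranges overlapped in all comparisons. The means were 3.71 ± 1.58 CPM in Swhtr null treated, 2.07 ± 1.96 CPM in Swhtr null untreated, 2.85 ± 0.460 CPM in WT treated and 2.80 ± 1.39 CPM in WT untreated slices (SD, n = 4 each). Treated Swhtr null slices had 1.82-fold (0.832 to 3.98) the level of untreated ones, a log2 difference of 0.86 (SE 0.53) with an adjusted p of 0.445 by edgeR. With the library number as a replicate block in the Swhtr null libraries alone, the log2 difference was 1.06 (SE 0.27, adjusted p 0.0176) and Reln was called. That block was added after the data were seen, and the planned block over all 16 libraries did not call Reln. In WT slices the log2 difference was 0.03 (-1.09 to 1.15, adjusted p 0.999). Swhtr null differed from WT by -0.45 (-1.61 to 0.70, adjusted p 0.968) in untreated slices, which became -1.33 without Swhtr null untreated library 2 and -0.046 without WT untreated library 2, and by 0.38 (-0.71 to 1.47, adjusted p 0.899) in treated slices.

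**Figure D2:**
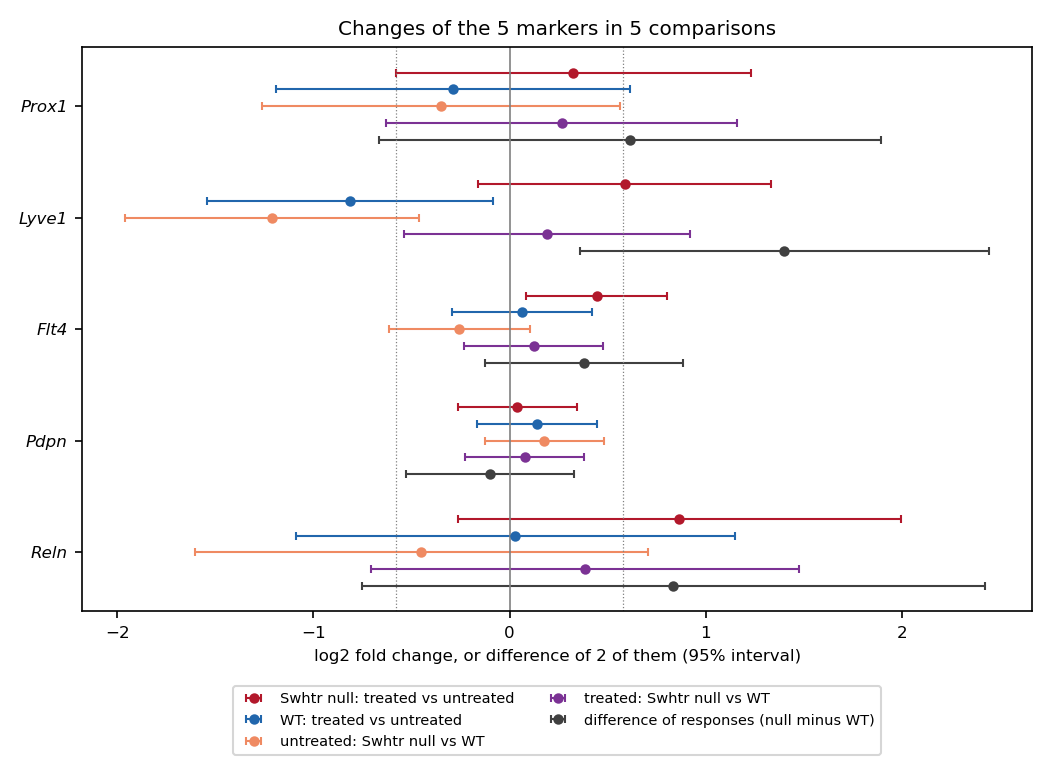
Difference of each marker in 5 comparisons (horizontal axis, log2 fold change or, in black, the difference between the 2 responses), as edgeR estimates (points) with 95% intervals (bars); dotted lines mark the fold threshold of 0.58. The intervals of Lyve1 for WT treatment, for the genotypes in untreated slices and for the difference of responses, and that of Flt4 for Swhtr null treatment, do not include 0, and none of the markers passed the adjusted threshold.

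Over genes with a mean above 1 CPM, deviations of same-numbered Swhtr null libraries from their group means correlated at 0.148 to 0.591. Treated library 3 lay closer to untreated library 4 (0.334) than to untreated library 3 (0.259). Whether a number marks a shared mouse is not stated. Prox1, Lyve1 and Reln, but not Flt4 and Pdpn, ranked highest in libraries 2 and lowest in libraries 4 under both conditions (plot of the markers by library number). Reln was higher in the treated library of the same number in 4 of 4 Swhtr null pairs, by 1.10-fold to 3.14-fold, and Lyve1 in 4 of 4, by 1.04-fold to 1.89-fold. Prox1 and Flt4 were higher in 3 of 4 such pairs (ratios of 0.825 to 1.83 and of 0.955 to 1.52), and Pdpn in 3 of 4 (0.737 to 1.28). With the number as a replicate block in a fit of the Swhtr null libraries alone, Flt4 (0.42, adjusted p 0.0554) and Lyve1 (0.49, adjusted p 0.0956) were not called, unlike Reln. That fit called 608 genes, against 155 in the fit without the block. With the number as a block across all 16 libraries, 450 genes and 0 of 5 markers were called. Leaving out Swhtr null untreated library 2 alone also brought a call of Reln, at a log2 difference of 1.74 (adjusted p 0.0225), and leaving out Swhtr null untreated library 4 gave 0.55 (adjusted p 0.718). Libraries numbered alike in WT slices correlated at -0.108 to 0.319. In WT slices Lyve1 and Prox1 were lower in the treated library in 4 of 4 pairs by number, at ratios of 0.412 to 0.807 and of 0.701 to 0.887. For Lyve1 any pairing would give this count, because its WT groups did not overlap. WT numbers were not taken as pairs.

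**Figure D3:**
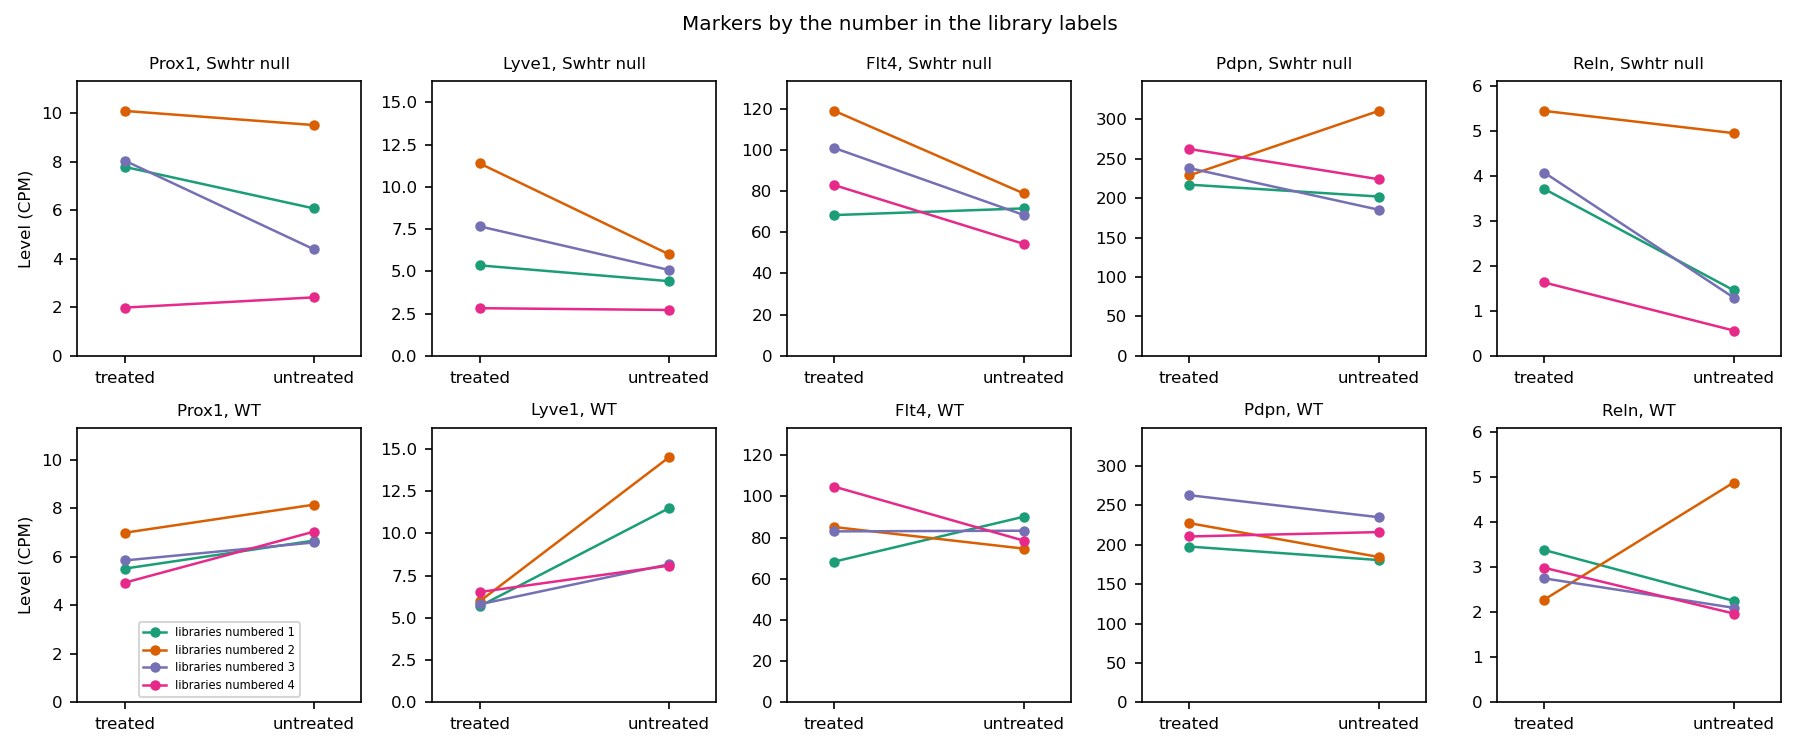
Level of each marker (vertical axis, CPM) in treated and untreated libraries, with a line joining libraries that carry the same number; Swhtr null in the upper row, WT in the lower row. In Swhtr null slices libraries numbered 2 were the highest and those numbered 4 the lowest for Prox1, Lyve1 and Reln under both conditions. The lines of WT libraries join numbers only.

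Taking the markers as a list, 5 of 5 were higher in treated than in untreated Swhtr null slices, with a median log2 difference of 0.44 against 0.01 over all genes tested. In WT slices 3 of 5 were higher after treatment, with a median of 0.03 against 0.01 over all genes. Swhtr null exceeded WT for 1 of 5 in untreated slices (median -0.35, all genes 0.00) and for 5 of 5 in treated slices (median 0.19, all genes 0.00). Prox1, Lyve1 and Reln varied together in Swhtr null slices. There Flt4 had an r of 0.78 with Lyve1, 0.77 with Reln and 0.54 with Prox1. The counts of markers are thus not 5 separate observations.

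Across the 16 libraries, log2 CPM of Prox1 and Lyve1 had a Pearson r of 0.78 and a Spearman rho of 0.68 (permutation p 0.00043 and 0.00493, Benjamini-Hochberg adjusted 0.00322 and 0.0268 over 45 relations). The r was 0.49 without the 2 libraries farthest from the median of Prox1, 0.84 after centring within the 4 groups, 0.89 within Swhtr null and 0.70 within WT libraries. Prox1 and Reln had an r of 0.77 and a rho of 0.77 (permutation p 0.00054 and 0.00072, adjusted 0.00347 and 0.00648), with an r of 0.73 without 2 libraries and of 0.83 after centring. Within genotypes the r of this pair was 0.84 in Swhtr null but 0.07 in WT libraries, and the difference between genotypes was not tested. Lyve1 and Reln had an r of 0.67 and a rho of 0.56 (permutation p 0.00447 and 0.0246, adjusted 0.0183 and 0.0737), with an r of 0.44 without 2 libraries, 0.83 within Swhtr null and 0.31 within WT libraries. For Flt4 and Reln an r of 0.59 (permutation p 0.0165, adjusted 0.0488; rho 0.39, permutation p 0.137, adjusted 0.281) dropped to 0.16 without 2 libraries, so it rests on those. Lyve1 and Flt4 had an r of 0.54 (permutation p 0.029, adjusted 0.0706), and of 0.61 after centring (permutation p 0.0116, adjusted 0.030). Pdpn passed the threshold with no marker and no list. Libraries that share a mouse are not independent, so these p-values are too small.

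Flt4 varied with blood endothelial genes, and its r with the mean level of the 16 blood endothelial genes was 0.89 and its rho 0.85 (permutation p 1e-05, the smallest that 100000 permutations can give, and 5e-05, adjusted 0.0003 and 0.00112). The r was 0.83 without 2 libraries, 0.91 after centring, 0.93 within Swhtr null and 0.94 within WT libraries. Flt4 also varied with the cardiomyocyte genes, at an r of 0.78 and a rho of 0.50 (permutation p 0.00034 and 0.049, adjusted 0.00306 and 0.123), with an r of 0.66 without 2 libraries, 0.74 after centring, 0.92 within Swhtr null and 0.49 within WT libraries. With the lymphatic growth genes Flt4 had an r of 0.89 and a rho of 0.88 (permutation p 2e-05 for each, adjusted 0.0003 and 0.0009), and an r of 0.76 without 2 libraries. For Flt4 and fibroblast genes an r of 0.59 (permutation p 0.0157, adjusted 0.0488) dropped to 0.16 without 2 libraries. With the blood endothelial list, Prox1 and Lyve1 had an r of 0.18 and 0.30 (permutation p 0.514 and 0.262, adjusted 0.608 and 0.357; rho 0.21 and 0.38, permutation p 0.435 and 0.145, adjusted 0.544 and 0.284). With the cardiomyocyte list both had an r of 0.35 (permutation p 0.159 and 0.189, adjusted 0.256 and 0.283), and after centring 0.48 and 0.72. Both passed with 17 other genes of lymphatic endothelium, whose cell sources in the slices were not tested. The r there was 0.72 for Prox1 and 0.73 for Lyve1 (permutation p 0.00226 and 0.00126, adjusted 0.0102 and 0.00709). It was 0.81 and 0.79 within Swhtr null and 0.31 and 0.37 within WT libraries. With fibroblast genes r was 0.51 and 0.46 (permutation p adjusted 0.0985 and 0.128), and 0.68 and 0.73 after centring. Reln had an r of 0.88 with 17 other genes of lymphatic endothelium (rho 0.82, permutation p 2e-05 and 0.0001, adjusted 0.0003 and 0.00135; 0.80 without 2 libraries) and of 0.82 with fibroblast genes (rho 0.84, permutation p 8e-05 and 0.00012, adjusted 0.0009 and 0.00135; 0.71 without 2 libraries). Within Swhtr null and WT libraries these were 0.97 and 0.69 for the lymphatic list, and 0.87 and 0.63 for the fibroblast list. Reln also passed the permutation threshold with the lymphatic growth genes (r 0.74, adjusted p 0.0078). So it did with the cardiomyocyte (0.59), epicardial (0.58) and macrophage (-0.60) lists, each at an adjusted p of 0.0488, so its r was not particular to lymphatic genes. Lyve1 and the macrophage list had an r of -0.20 and a rho of -0.19 (permutation p 0.446 and 0.478, adjusted 0.557 and 0.552), -0.58 within Swhtr null and 0.24 within WT libraries.

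**Figure D4:**
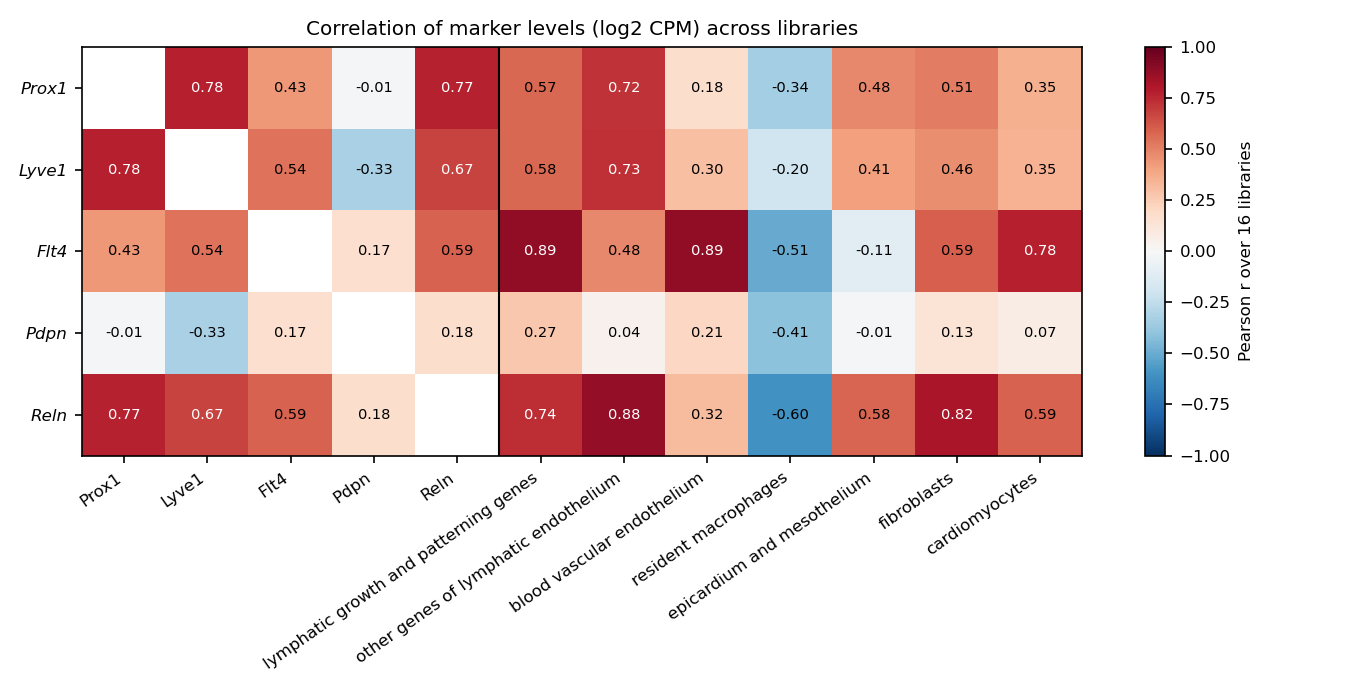
Pearson r across the 16 libraries between the log2 CPM of each marker (rows) and the other markers or the mean level of each gene list (columns, parted by the black line); red is positive and blue negative, and each cell gives its r. Prox1, Lyve1 and Reln are mutually red at 0.67 to 0.78, Flt4 is reddest with blood endothelial and lymphatic growth genes at 0.89, and the Pdpn row ranges from -0.41 to 0.27.

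The genes closest to each marker by r over the 16 libraries, among 12504 candidates, are given as a description without a test. The points share libraries and depth. For Flt4 these were Hspa12b, Tie1, Ppp1r16b, Rasip1 and Pxdn, at an r of 0.96 to 0.94. For Reln they were Col28a1, Rasgrf2, Egfr, Lrtm1 and Ccser2 (0.91 to 0.90), and for Prox1 Scn3a, Dtx1, Aldh1a3, Slc2a10 and Cish (0.91 to 0.81). For Lyve1 they were Cadm3, Cish, Tbl1x, Klhdc7a and Lgi4 (0.86 to 0.81), and for Pdpn S100a11, Procr, Gss, Plac8 and Angptl4 (0.86 to 0.81).

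The ligands and partners of the pathway were read from a list of 26 lymphatic growth and patterning genes. Between treated and untreated Swhtr null slices 19 of 26 were higher, 0 were called higher and 1 was called lower, with a median log2 difference of 0.30 against 0.01 over all genes. The gene called lower was Adm, whose product adrenomedullin promotes lymphatic growth. Adm had 109.8 ± 20.7 CPM in treated and 174.7 ± 17.8 CPM in untreated Swhtr null slices (log2 difference -0.67, SE 0.15, adjusted p 0.0303). Kdr, the other main VEGF receptor of endothelium, had 157 ± 19.7 CPM in treated and 111 ± 12.6 CPM in untreated Swhtr null slices, which passed the adjusted p but not the fold threshold (0.51, adjusted p 0.0274). Ccbe1, which helps to activate Vegfc, was lower (-0.55, adjusted p 0.0356) and the mechanosensitive channel gene Piezo1 higher (0.34, adjusted p 0.0402), both under the fold threshold. The ligand genes themselves were not called, with Vegfc at -0.13 (adjusted p 0.515) and Vegfd at 1.02 (adjusted p 0.276). For treated against untreated WT slices 12 of 26 were higher (median -0.02) and 0 were called. The smallest unadjusted p there was that of Vegfc, with 17.7 ± 1.05 CPM in treated and 22.4 ± 2.61 CPM in untreated WT slices (-0.34, unadjusted p 0.00201, adjusted p 0.999). Adm was also lower in treated than in untreated WT slices, without a call (-0.37, unadjusted p 0.0264, adjusted p 0.999 by edgeR). Its difference between the responses did not pass (-0.30, adjusted p 0.762). Kdr (0.24), Ccbe1 (-0.25) and Piezo1 (0.10) differed in WT slices in the same directions as in Swhtr null slices, without a call.

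Swhtr null exceeded WT for 9 of 26 growth genes in untreated slices (median -0.14) and for 22 of 26 in treated slices (median 0.11), with 0 calls in each. The smallest unadjusted p in untreated slices was that of Ccbe1, with 10.9 ± 1.44 CPM in Swhtr null and 7.62 ± 1.02 CPM in WT slices (0.51, adjusted p 0.504). In the difference between the responses 0 of 26 were called, and Nr2f2, a nuclear receptor that helps to switch on Prox1, had the smallest unadjusted p (0.58, unadjusted p 0.00744, adjusted p 0.715). Nr2f2 averaged 53.6 ± 9.99 CPM in Swhtr null treated, 39.7 ± 6.03 CPM in Swhtr null untreated, 43.7 ± 2.44 CPM in WT treated and 48.5 ± 7.43 CPM in WT untreated slices.

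A list of 20 other genes of lymphatic endothelium was written by hand, and the cell sources of their RNA in the slices were not tested. Among them Cd36 averaged 1764 to 2215 CPM in the 4 groups, against 5.59 to 7.11 CPM for Prox1. Of the 20 genes, 13 were higher in treated than in untreated Swhtr null slices (median 0.25), and 1 was called higher. It was Ackr4, a scavenging chemokine receptor, which rose to 1.46 ± 0.530 CPM in treated slices, against 0.326 ± 0.134 CPM in untreated Swhtr null slices (log2 difference 2.12, SE 0.53, adjusted p 0.0399). In WT slices Ackr4 had 1.26 ± 0.937 CPM treated and 1.08 ± 0.539 CPM untreated, and the difference between the responses did not pass (1.90, adjusted p 0.715). The other 6 comparisons gave 0 calls in this list. Ccl21a, the chemokine of lymphatic endothelium that has near-identical gene copies and so an uncertain count, had 6.28 ± 5.09 CPM in treated and 1.43 ± 2.24 CPM in untreated Swhtr null slices, with an adjusted p of 0.359.

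Lists of other cell types were set beside the markers for treated against untreated Swhtr null slices. Blood endothelial genes were higher for 13 of 16 (median 0.25, 0 called). Fibroblast genes were higher for 11 of 12 (median 0.27), and 2 were called: Scara5 (1.76, adjusted p 0.00831) and Dpt (0.97, adjusted p 0.0486). Macrophage genes were higher for 1 of 17 (median -0.53, 0 called). Epicardial genes were higher for 10 of 14 (median 0.18), and Krt19, a keratin of mesothelium, was called lower (-2.25, adjusted p 0.00396). Krt19 was also lower in treated than in untreated WT slices, without a call (-1.56, unadjusted p 0.000334, adjusted p 0.927 by edgeR). Cardiomyocyte genes were higher for 12 of 12 (median 2.28, 0 called), and they summed to 11.5 to 101 CPM in treated and 7.69 to 13.4 CPM in untreated Swhtr null slices. The 6 of them above 1 CPM summed to 88.9 and 66.0 CPM in treated libraries 2 and 3, but to 11.9 and 9.43 CPM in 1 and 4. In WT slices 12 of 12 cardiomyocyte genes were also higher after treatment (median 1.07). There 11 of 16 blood endothelial, 6 of 12 fibroblast, 4 of 17 macrophage and 3 of 14 epicardial genes were higher, with 0 calls in these lists. The part of any of these cell types in the marker levels was not tested.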

How the data were processed

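The authors aligned paired-end reads with STAR to mm10 (GRCm38), per the labels and the methods, and deposited raw counts per Ensembl gene. The methods and the labels name different library kits. Of 55487 genes, 24971 had at least 10 counts over the 16 libraries and were normalized by TMM and fitted with edgeR 4.0.16 (R 4.3.3; 4 group means, 12 residual degrees of freedom, robust quasi-likelihood test). Benjamini-Hochberg adjustment ran over all 24971 genes, and calls needed both an adjusted p below 0.05 and a log2 fold change beyond 0.58 in either direction. Levels are CPM, log2 CPM used a prior count of 2, and list levels average genes with a mean above 1 CPM. All 16 columns were used. Symbols came from GENCODE M21, which held 55227 of the IDs.

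The markers and lists were chosen with earlier results of these data known. Named are the 5 markers, of each list the called genes and otherwise up to 4 with the smallest unadjusted p in a comparison, for each marker the 5 genes of highest r among named genes with a mean of at least 1 CPM, and Mmrn1. Vegfd, Ccl21a, Nkx2-5, Timd4, Ccl24 and Folr2, and Vegfc between Swhtr null slices, were chosen after their values were seen. The replicate numbers served as a block within Swhtr null libraries, a choice made after the data were seen. Deviations of same-numbered libraries correlated there at 0.148, 0.591, 0.259 and 0.399, which does not establish pairs. Swhtr null treated library 1 correlated more with WT untreated library 2 (0.330) and WT treated library 1 (0.306) than with its own number. Swhtr null treated library 3 correlated more with WT untreated library 4 (0.461). Same-numbered WT libraries correlated at -0.108, -0.0836, 0.165 and 0.319 and were not taken as pairs. Of the 16 libraries, 8 had their highest correlation with a library of the same number in another group. Untreated libraries numbered 2 and 4 correlated at 0.378 and 0.374 between the genotypes, which cannot share a mouse. No library pair agreed within sampling noise (lowest chi-square per degree of freedom 5.39). Alternatives were DESeq2 1.42.0, edgeR on the 8 libraries of a comparison, size factors of DESeq2, limma 3.58.1 weighted by library quality, 3 other filters, no fold threshold, the replicate block and each library left out. Blocks within a genotype and the removal of both Swhtr null libraries numbered 2 or 4 were added after the data were seen. The procedure was tested on simulated data.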

Additional observations from a re-analysis of the deposited data

Results flagged for a closer look

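In WT untreated slices the Reln level of library 2 was 4.88 CPM, whereas the other 3 libraries had 1.97 to 2.26 CPM, a gap of 0.903 of the whole range of the group. It was the only value that stood apart among the 20 sets of 4 libraries checked (5 markers in 4 groups), and chance flags about 1 in 20 such sets.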

How the results depend on the processing

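Of 725 alternative values of the 35 marker differences, 682 kept their direction and their call, 34 changed sign and 9 brought a new call. The number of markers called moved to 1, from 0, in these settings: DESeq2 on the 8 libraries compared, for WT treatment and for the genotypes in untreated slices (Lyve1), and, for treatment of Swhtr null slices (Reln), the replicate block in Swhtr null libraries alone, the block within each genotype, and both Swhtr null libraries numbered 2 left out (log2 difference 1.49, adjusted p 0.0405). Leaving out single libraries gave 0 to 1. The block within each genotype also called 1 marker, Lyve1, for WT treatment (-0.78, adjusted p 0.0406) and for the difference between the responses (1.27, adjusted p 0.0159), and the block in WT libraries alone called 1, Lyve1 (-0.78, adjusted p 0.0357). WT numbers were not taken as pairs. The planned replicate block over all 16 libraries gave Reln 0.99 in Swhtr null slices (adjusted p 0.174) and changed no call of a marker. The cause of these changes was not tested. limma with quality weights turned the sign of Prox1 (-0.29) and Lyve1 (-0.25) between treated genotypes, of Pdpn between the responses (0.060) and of Prox1 for treatment over both genotypes (-0.13). Without both Swhtr null libraries numbered 4, Pdpn differed by -0.024 after treatment. Centring turned the r of Prox1 and Pdpn to 0.080. Leaving out each library in turn gave signs of both kinds for Lyve1 (-0.18 to 0.45) and Flt4 (-0.020 to 0.24) between treated genotypes, Pdpn between untreated genotypes (-0.0010 to 0.27), Pdpn after Swhtr null treatment (-0.053 to 0.22), Flt4 (-0.051 to 0.16) and Reln (-0.11 to 0.43) after WT treatment, Pdpn between the responses (-0.19 to 0.077), Prox1 (-0.23 to 0.11) and Reln (-0.47 to 0.17) between genotypes over both treatments, and Prox1 (-0.11 to 0.20) and Lyve1 (-0.30 to 0.014) for treatment over both genotypes. None of these differences was called.

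Counts over all genes depended on the setting more than the markers did. For Swhtr null treatment 155 genes were called, against 464 by DESeq2 on all libraries, 316 by DESeq2 and 6 by edgeR on the 8 libraries compared, 544 without the fold threshold, 450 to 616 with a replicate block, 423 without both libraries numbered 2, 1 without both numbered 4 and 22 to 574 with 1 library left out. For WT treatment 0 were called, and 1 to 31 by alternatives that made calls. For treatment over both genotypes 90 were called, against 217 by DESeq2, 235 by limma, 445 without the fold threshold, 211 to 274 with a block and 34 to 201 with 1 library left out. DESeq2 called 33 to 44 (25 by edgeR) between untreated, 35 to 39 (23) between treated and 52 (33) between all genotypes, and the block within each genotype 54 (0) between the responses. Reln rests on 1034 reads in all, the fewest of the 5 markers.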
